A study of Mus musculus with 321 samples.

Results

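Ccr9, Ccr7, Ccr4, Cxcr4, S1pr1, Klf2 and Cd44 were followed as 7 thymocyte homing and migration genes among 21887 protein-coding genes. They were chosen by function, from a fixed list of names, with earlier results of these data known. All 7 were found in the gene table. Each gene was described through a window made of its body and 50 kb on each side, in assembly GRCm38. Every peak, histone island and Tcf-1 summit in that window was counted for it.

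Chemokine receptors are G protein-coupled receptors that steer cells along gradients of small secreted proteins, and developing T cells switch between them as they move through the thymus. Cxcr4 and Ccr9 bind Cxcl12 and Ccl25 made by thymic stroma, while Ccr7 and Ccr4 are known for the move of positively selected cells into the medulla. S1pr1, the receptor for sphingosine 1-phosphate, lets mature thymocytes leave, and the transcription factor Klf2 is known to switch S1pr1 on. Cd44 binds hyaluronan and marks the earliest thymic progenitors as well as memory T cells, and fibroblasts express it too.

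The series asked how Tcf-1, the T lineage transcription factor encoded by Tcf7, acts on chromatin. Open chromatin was profiled with ATAC-seq in double-positive (DP) thymocytes, which carry both CD4 and CD8 and were sorted by flow cytometry without culture, from 2 Tcf-1 knockout (KO) libraries with the genotype TCF-1-/- deltaVII and 2 wild-type (WT) libraries of the strain written C56BL/6. It was also profiled in NIH3T3, an established fibroblast line of NIH/Swiss origin used at passages 8-12, carrying a retrovirus that expresses Tcf-1 (Tcf-1 RV, 4 libraries) or the empty retrovirus (Empty RV, 4 libraries). NIH3T3 cells that had not received Tcf-1 gave islands of H3K27me3 and H3K9me3, repressive histone marks, in 2 libraries per mark. Binding of Tcf-1 was given by 1 pooled list of 40562 summits in Tcf-1 RV cells. The labels state neither the age of the animals nor how many gave cells, or whether replicates are separate animals or cultures.

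The ATAC-seq files list peak positions and hold neither heights nor read depths, so only the length of a list shows how much was called. The lists held 11171 and 12209 peaks in KO, against 23249 and 30985 in WT. They held 47623, 43527, 36583 and 62639 peaks in Tcf-1 RV replicates 1 to 4, against 22778, 34601, 46819 and 58026 in Empty RV. By tags in the file names, the first 2 replicates of both NIH3T3 arms belong to day 2 and the last 2 to day 4. Of 8 DP thymocyte genes, 1 and 4 had a peak at a gene end (within 1 kb of either end) in the KO libraries, against 7 and 8 in the WT libraries. Cd4, Cd8a, Cd3e and Lck had none in either KO library. Gene-end peaks at 8 fibroblast genes numbered 1 and 1 in KO, against 2 and 4 in WT, those at 5 B cell genes 0 and 0 in KO, against 1 and 1 in WT, and those at 5 genes of mature single-positive T cells 0 and 0 in KO, against 2 and 2 in WT. They numbered 1 and 0 in KO, against 1 and 2 in WT, at 4 erythroid genes, and 1 and 1 in KO, against 0 and 1 in WT, at 5 thymic epithelium genes. For 5 myeloid genes all 4 DP libraries had none. In NIH3T3, all 8 fibroblast genes had a gene-end peak in each Tcf-1 RV library, against 4, 8, 8 and 8 genes in Empty RV, and none of the DP genes had one in any library. The window of Tcf7 itself held 4 and 3 peaks in KO and 8 and 7 in WT, which does not test the deletion because a peak list does not show exons.

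In DP thymocytes, the windows of all 7 genes held fewer peaks in both KO libraries than in either WT library. Together they held 10 and 11 peaks in KO, against 37 and 44 in WT. Peaks from the 4 libraries that shared at least 1 bp were merged into 45 regions, of which 37 had a peak in both WT libraries. A region with a peak in both WT libraries was called lost when the KO libraries had none there, and 25 of the 37 (67.6%) were lost. Of all such regions in the genome, 45.7% were lost. Another 8 regions were kept in all 4 libraries, and 4 had a peak in 1 KO library.

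No region of these windows was gained, meaning called in both KO libraries and neither WT library; 0.478% of all regions called in both KO libraries were gained (1.41% to 1.95% without KO replicate 1, KO replicate 2 or WT replicate 2), and 0.329% of all gene windows held one. The groups did not overlap in peak number in 7 of 7 windows, and 44.7% of all gene windows were likewise lower in KO without overlap. That share is over all 21887 windows, of which 16144 had a region in both WT libraries. The median difference over the 7 windows was -4.5 peaks, against -1 over all gene windows. The 7 windows also held more peaks in WT, with a median of 6.5, against 2.5 over all gene windows. The part of the WT peak number in the larger difference was not tested. An exact two-sided permutation test on 2 against 2 libraries cannot give a p below 0.333, which was the p of each of the 7 genes, so no window passed a threshold of 0.05.

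The shorter KO lists moved with these counts. Per 10000 peaks of the list, the 7 windows held 8.95 and 9.01 peaks in KO, against 15.9 and 14.2 in WT. On this scale the windows of Ccr9 and S1pr1 were no longer lower in KO, with differences of 0.15 and 0.18 peaks per 10000, while the means of the other 5 were, with no overlap between the groups at Ccr7, Ccr4 and Cd44. When each DP library was reduced to its 11171 widest peaks, the length of the shortest list, 2 of 11 member regions then called in both WT libraries were lost, 1 each in the windows of Ccr4 and Cd44. That share was 14.7% genome-wide. In the same reduced lists 0 member regions were gained, where 10.5% of all regions then called in both KO libraries were. Of the 25 lost regions, 20 had no peak in any of these reduced lists. Because bulk libraries were compared, fewer cells with an open region and a lower opening per cell cannot be told apart, and the part of the missing DP gene-end peaks in these counts was not tested.

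**Figure D1:**
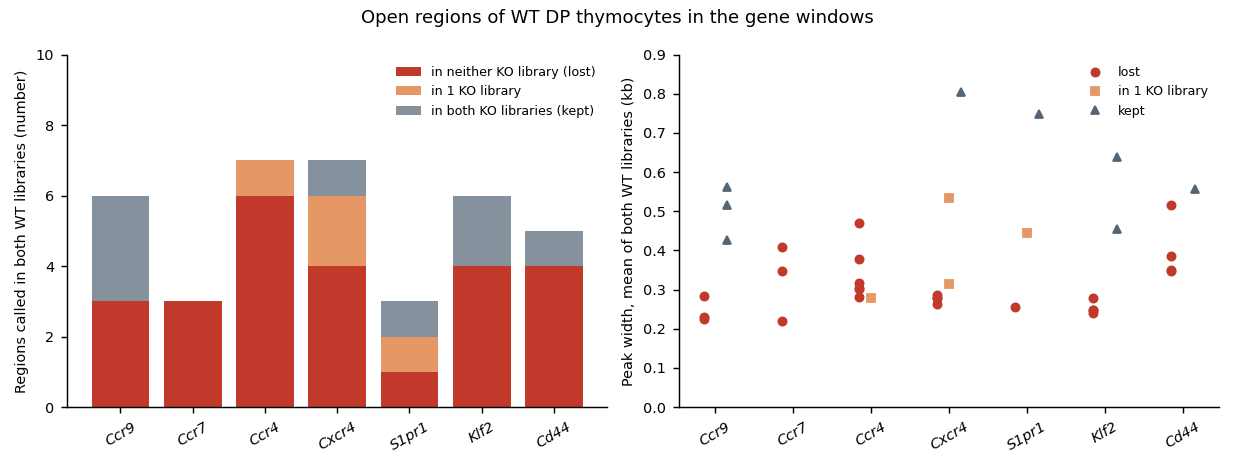
Left, regions called in both WT libraries for each gene, stacked by whether neither KO library (lost), 1 KO library or both KO libraries (kept) had a peak. Right, width in kb of each of these regions as the mean of its peaks in the 2 WT libraries; lost regions lie between 0.22 and 0.516 kb and all kept regions at 0.426 kb or more.

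Lost regions were mostly distal, 21 of 25 in these windows and 8518 of 10032 in the genome. Among member regions called in both WT libraries, 21 of 28 distal ones were lost and 4 of 9 gene-end ones, where the genome gave 65.9% and 16.8%. Regions with no peak in any NIH3T3 library were lost in 18 of 27 cases (68.5% genome-wide), and regions open in all 8 NIH3T3 libraries in 2 of 5 (11.7% genome-wide). In WT, the 25 lost regions had a median width of 0.283 kb and the 12 others 0.524 kb; over the genome these medians were 0.295 and 0.536 kb.

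The 8 kept regions were narrower in both KO libraries than in either WT library in 8 of 8 cases, as were 73.7% of all kept regions. The KO width was a median 0.62 of the WT width at the member regions, with a range of 0.30 to 0.86, and 0.741 over all kept regions. The smallest ratio was at chr3:115682413-115683208, 27225 bp from S1pr1, with peaks of 0.215 and 0.234 kb in KO, against 0.70 and 0.796 kb in WT.

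The state of the gene ends separated the members. Of the 6 genes with a region across a gene end in both WT libraries, 3 lost it (Ccr9, Ccr7 and Cd44), 2 had it in 1 KO library (Cxcr4 and S1pr1), and Klf2 kept it. Ccr4 had no such region, but lost one inside the gene over a RefSeq start. Promoters of 5 members were available from RefSeq (GRCm38.p6) and are printed because these gene-end regions lie on them. Each line holds the 250 bases before the start, 5′ to 3′ on the gene's strand. Capitals mark matches, on either strand, to the motif core CTTTGA bound by Tcf and Lef proteins, to its common variant form CTTTGT with another last base, to the core TGTGGT bound by Runx proteins, to the box CACCC bound by Krueppel-like factors, to the GC box GGGCGG and to the TATA box TATAAA.
Ccr9, chr9:123766961-123767210, plus strand: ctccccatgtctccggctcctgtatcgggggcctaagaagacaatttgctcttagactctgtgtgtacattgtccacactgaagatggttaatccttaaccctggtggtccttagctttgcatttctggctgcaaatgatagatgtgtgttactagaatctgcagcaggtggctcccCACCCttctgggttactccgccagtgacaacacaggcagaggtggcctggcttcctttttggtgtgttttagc
Ccr4, chr9:114496545-114496794, minus strand: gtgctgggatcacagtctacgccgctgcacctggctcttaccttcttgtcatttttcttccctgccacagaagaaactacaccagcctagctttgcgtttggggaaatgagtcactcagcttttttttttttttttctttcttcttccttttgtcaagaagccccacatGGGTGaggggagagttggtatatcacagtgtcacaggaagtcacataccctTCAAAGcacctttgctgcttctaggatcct
Cxcr4, chr1:128592300-128592549, minus strand: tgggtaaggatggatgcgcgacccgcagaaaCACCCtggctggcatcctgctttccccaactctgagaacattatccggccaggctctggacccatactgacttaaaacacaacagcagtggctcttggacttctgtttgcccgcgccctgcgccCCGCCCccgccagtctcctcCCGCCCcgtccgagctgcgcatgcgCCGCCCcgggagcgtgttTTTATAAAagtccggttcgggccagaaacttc
Klf2, chr8:72318812-72319061, plus strand: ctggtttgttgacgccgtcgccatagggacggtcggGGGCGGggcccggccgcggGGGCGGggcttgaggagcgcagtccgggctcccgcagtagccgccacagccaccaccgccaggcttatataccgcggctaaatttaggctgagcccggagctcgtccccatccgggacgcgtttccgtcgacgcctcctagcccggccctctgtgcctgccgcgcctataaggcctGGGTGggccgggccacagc
Cd44, chr2:102901666-102901915, minus strand: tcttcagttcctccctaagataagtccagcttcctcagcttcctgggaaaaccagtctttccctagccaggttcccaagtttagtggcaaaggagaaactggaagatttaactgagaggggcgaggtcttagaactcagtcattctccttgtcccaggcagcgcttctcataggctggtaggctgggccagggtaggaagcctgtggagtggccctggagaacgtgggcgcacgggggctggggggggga

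The lost regions covered all 250 bases printed for Ccr4, 45.6% of those for Ccr9 and 30.8% of those for Cd44. The Klf2 bases lay wholly in a region kept in both KO libraries, and the Cxcr4 bases wholly in one with a peak in 1 KO library. The Ccr4 promoter held the only match to the Tcf/Lef core, 1 CTTTGA on the other strand 30 bases before the start; 27.6% of 32851 RefSeq promoters of this length held at least 1 of the Tcf/Lef cores. CACCC was found once each in Ccr9, Ccr4, Cxcr4 and Klf2, and in 52% of all promoters. Cxcr4 held 3 GC boxes and Klf2 held 2, against 32.7% of all promoters with at least 1. Cxcr4 also held 2 TATAAA matches that overlap, 32 and 30 bases before the start, where 12.4% of all promoters had a match. No promoter of the 5 held TGTGGT (14% of all), and Cd44 held none of the 6 motifs. The GC content of the printed bases was 71.2% in Klf2, 61.2% in Cxcr4, 56.4% in Cd44, 50.4% in Ccr9 and 46.4% in Ccr4, against a median of 52.4%. A match describes letters and not a bound site.

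Ccr9, the receptor for Ccl25, lies at chr9:123767211-123783457. Its window held 3 and 3 peaks in KO, against 6 and 7 in WT, a mean of 3 ± 0 and 6.5 ± 0.707 (SD, n = 2 each). KO had lost the region at the start, chr9:123767097-123767432, where WT peaks were 0.231 and 0.336 kb wide. The pair of regions 12346 and 10008 bp before the start was kept. The nearer of these measured 0.239 and 0.445 kb in KO, against 0.551 and 0.572 kb in WT, and neither had a peak in any NIH3T3 library. The third kept region lay on an end of Lztfl1 at the edge of the window. Of the other lost regions, chr9:123806408-123806660 lay on an end of Cxcr6, a receptor for Cxcl16, in WT peaks of 0.206 and 0.253 kb.

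Ccr7, which binds Ccl19 and Ccl21 and guides cells to the medulla and lymph nodes, lies at chr11:99144199-99155077. Its window held 0 and 0 peaks in KO, against 3 and 6 peaks in WT (mean 4.5 ± 2.12, SD, n = 2). A window with a peak in both WT libraries and none in at least 1 KO library occurred in 9.78% of all genes. All 3 regions called in both WT libraries were lost. The region across the upper end of the gene, chr11:99155002-99155435, had WT peaks of 0.408 and 0.408 kb; the median peak of the KO lists measured 0.345 and 0.346 kb. The 3 regions seen in WT replicate 2 alone were also absent from KO.

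Ccr4, the receptor for Ccl17 and Ccl22, lies at chr9:114490316-114505476 and lost 6 of 7 regions, the highest number of the 7 genes. Its window held 1 and 0 peaks in KO, against 7 and 7 in WT, and the means were 0.5 ± 0.707 and 7 ± 0 (SD, n = 2 each). The lost region over the promoter printed above, chr9:114496513-114496901, had WT peaks of 0.372 and 0.384 kb and no peak in NIH3T3. The widest lost region of the window, chr9:114443218-114443789 inside Glb1, a lysosomal galactosidase gene, had WT peaks of 0.366 and 0.572 kb and stayed lost in the equal lists of widest peaks. The lost region chr9:114527202-114527547 inside Trim71 was open in all 8 NIH3T3 libraries.

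Cxcr4, the receptor for Cxcl12, lies at chr1:128588199-128592299 and kept 1 region inside the gene. Its window held 1 and 3 peaks in KO, against 7 and 7 in WT (2 ± 1.41 and 7 ± 0, SD, n = 2 each). A region inside the gene, chr1:128590790-128591603, was kept with peaks of 0.297 and 0.360 kb in KO, against 0.812 and 0.797 kb in WT. The region at the start, chr1:128592140-128592819, had no peak in KO replicate 1 and one of 0.287 kb in KO replicate 2, against 0.387 and 0.680 kb in WT. The 3 regions above the gene, at 10422, 10824 and 19570 bp from it, and the one at 17876 bp below it were lost. None of the 7 Cxcr4 regions called in both WT libraries had a peak in any NIH3T3 library.

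**Figure D2:**
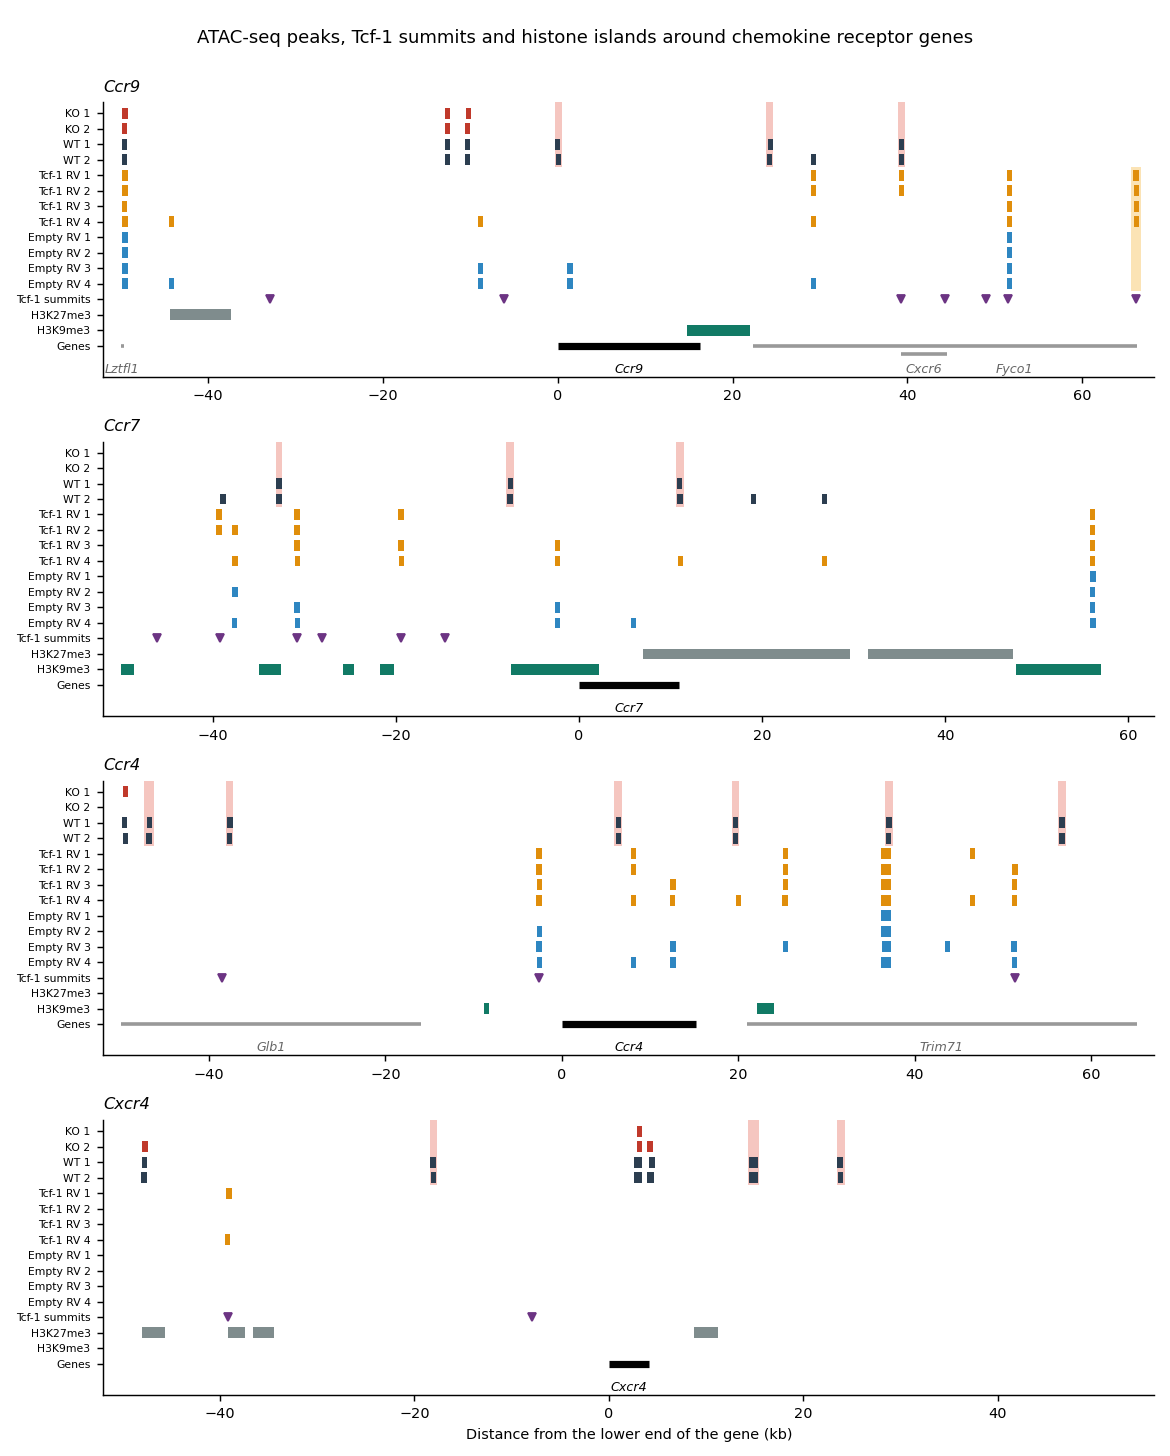
Peaks of the 12 ATAC-seq libraries (rows), Tcf-1 summits (triangles), histone islands called in both replicates and genes around Ccr9, Ccr7, Ccr4 and Cxcr4, by distance in kb from the lower end of the gene. Pink bands mark lost DP regions, the yellow band marks the NIH3T3 region open in every Tcf-1 RV library and closed in Empty RV, and features are drawn at least 0.6 kb wide; the Ccr7 window has no peak in either KO row.

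S1pr1, at chr3:115710433-115715055, had the smallest difference of the 7 genes. Its window held 2 and 1 peaks in KO, against 3 and 3 in WT (1.5 ± 0.707 and 3 ± 0, SD, n = 2 each). The region across its upper end, chr3:115714754-115715302, had 1 KO peak of 0.220 kb, in replicate 1, against 0.339 and 0.549 kb in WT, and was open in all 8 NIH3T3 libraries. The single lost region lay 48989 bp below the gene, where WT peaks were 0.257 and 0.252 kb.

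Klf2, at chr8:72319062-72321654, kept its promoter open. The window held 2 and 3 peaks in KO, against 6 and 7 in WT (2.5 ± 0.707 and 6.5 ± 0.707, SD, n = 2 each). At the start, chr8:72318702-72319528, peaks measured 0.416 and 0.391 kb in KO, against 0.452 and 0.827 kb in WT, and all 8 NIH3T3 libraries had a peak there as well. A second kept region lay 39446 bp below the gene. The 4 lost regions lay 23034 and 5726 bp below it and 32768 and 44300 bp above it, the last 2 inside Eps15l1, an endocytosis gene. One peak of 0.209 kb inside Klf2 was called in KO replicate 2 alone, and it was the only member region seen in KO and not in WT.

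Cd44, at chr2:102811141-102901669, had 1 and 1 peaks in KO, against 5 and 7 in WT (1 ± 0 and 6 ± 1.41, SD, n = 2 each). The one kept region, chr2:102867451-102868055 inside the gene, had peaks of 0.268 and 0.257 kb in KO, against 0.511 and 0.601 kb in WT, and contained a Tcf-1 summit mapped in NIH3T3. The region across the start, chr2:102901313-102901742, was lost with WT peaks of 0.264 and 0.430 kb, although every NIH3T3 library was open there. A region inside the gene, chr2:102886409-102886955, was lost with WT peaks of 0.486 and 0.547 kb, and stayed lost in the equal lists of widest peaks.

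**Figure D3:**
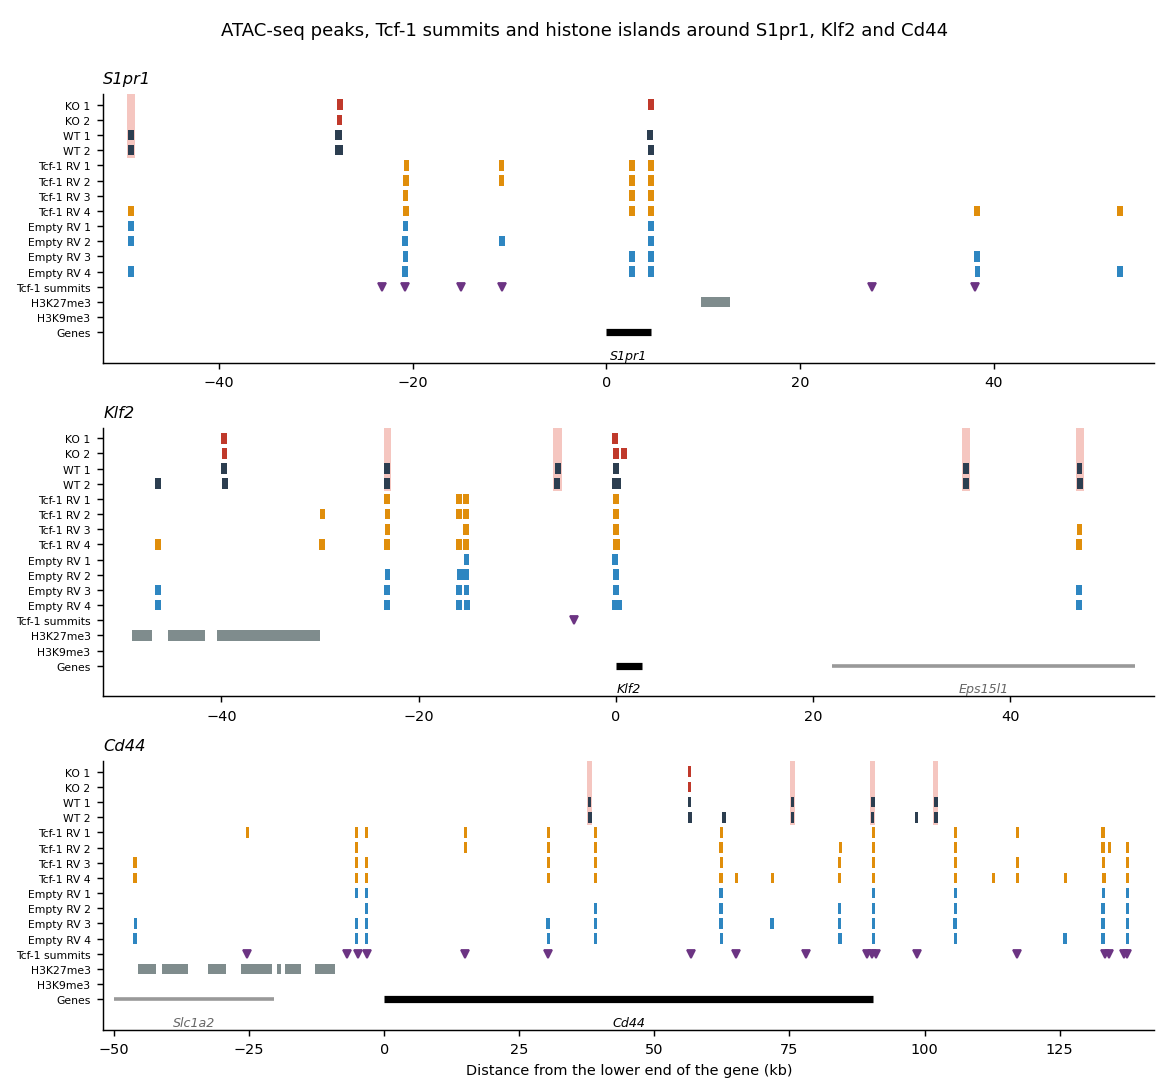
The same map for S1pr1, Klf2 and Cd44, with peaks per library in rows, Tcf-1 summits as triangles, histone islands and genes, by distance in kb from the lower end of the gene. Pink bands mark the 1, 4 and 4 lost DP regions; the Klf2 start is open in all 12 libraries, and Cd44 has 1 region with KO peaks.

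The list of 36 other homing and migration genes, made of receptors, adhesion molecules, ligands and regulators, gave the setting for these losses. Of the 30 with a region in both WT libraries, 25 had at least 1 lost region, against 7 of 7 members and 64.3% of all such gene windows. Of the distinct regions of both WT libraries in their windows, 57 (50%) were lost. Ccr2, an inflammatory chemokine receptor, lost 8 of 8 regions. Itga4 and Itgb1, the subunits of the VLA-4 integrin, each lost 4 of 5, and Cd69, which holds S1pr1 inside the cell, lost 4 of 6. No gene of the 36 had a gained DP region. Per window the median share lost was 66.7% for the members, against 33.3% (quartiles 20% and 50%) over 9893 windows with at least 3 regions.

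In NIH3T3, the windows of the 7 genes held 35, 35, 32 and 52 peaks in Tcf-1 RV replicates 1 to 4, against 17, 23, 36 and 41 in Empty RV. By these counts Tcf-1 RV exceeded Empty RV in both day 2 replicates, and the day 4 replicates overlapped. Per 10000 peaks of the list, the windows held 7.35, 8.04, 8.75 and 8.30 peaks in Tcf-1 RV, against 7.46, 6.65, 7.69 and 7.07 in Empty RV. On this scale the day 2 replicates overlapped, and those of day 4 were higher in Tcf-1 RV without overlap. The part of list length in the day pattern was not tested. No window passed the exact two-sided permutation test over 4 against 4 libraries: p was 0.2 to 1 for the 7 genes, 0 of 7 were under 0.05 before adjustment, and all adjusted p were 1 (Benjamini-Hochberg over 21887 windows). Without Empty RV replicate 4, 1 of 7, Ccr7, was under 0.05 before adjustment, with an exact permutation p of 0.0286 and an adjusted p of 0.907. Of all windows, 0.553% were higher and 0.0274% lower in Tcf-1 RV at an unadjusted p under 0.05, and 0 passed the adjustment. The smallest exact permutation p of this design, 0.0286, can pass it only if a large share of all windows reach that p.

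**Figure D4:**
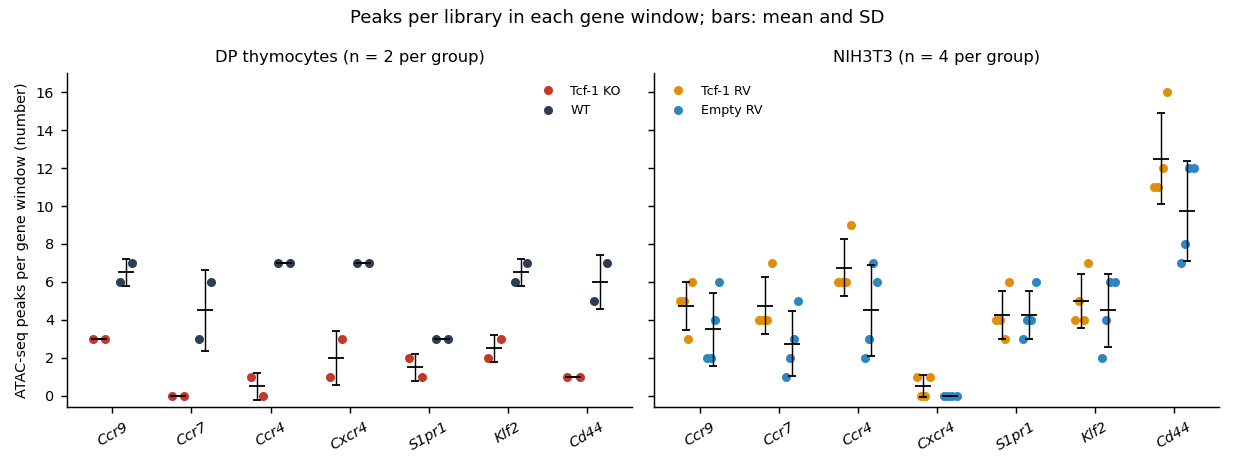
Number of ATAC-seq peaks in the window of each gene, 1 point per library, with the mean and SD as bars. Left, Tcf-1 KO beside WT DP thymocytes, which do not overlap for any of the 7 genes; right, Tcf-1 RV beside Empty RV NIH3T3, which overlap for all 7.

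Among the chemokine receptors, Ccr7 had the lowest p, with 4, 4, 4 and 7 peaks in Tcf-1 RV, against 1, 2, 3 and 5 in Empty RV. The means were 4.75 ± 1.5 and 2.75 ± 1.71 (SD, n = 4 each), with an exact permutation p of 0.2. Tcf-1 RV was higher in 4 of 4 pairs of replicates that share a number.

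Ccr4 had 6, 6, 6 and 9 peaks in Tcf-1 RV, against 2, 3, 7 and 6 in Empty RV (exact permutation p 0.286). Ccr9 had 5, 5, 3 and 6 in Tcf-1 RV, against 2, 2, 4 and 6 in Empty RV (exact permutation p 0.4). For both, the day 2 libraries of Tcf-1 RV lay above those of Empty RV, with mean differences of 3.5 peaks at Ccr4 and 3 at Ccr9, and the day 4 libraries did not, with 1 and -0.5.

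Cxcr4 was nearly closed in fibroblasts. Its window held 1, 0, 0 and 1 peaks in Tcf-1 RV and none in any Empty RV library, as in 15% of all windows. The single region, chr1:128548862-128549273, had peaks of 0.349 and 0.247 kb in Tcf-1 RV replicates 1 and 4, lay 38926 bp from the gene within H3K27me3, and contained a Tcf-1 summit with a score of 75.6.

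Cd44 had the most fibroblast peaks of the 7 genes, 11, 11, 12 and 16 in Tcf-1 RV, against 7, 8, 12 and 12 in Empty RV (12.5 ± 2.38 and 9.75 ± 2.63, SD, n = 4 each, exact permutation p 0.286). Its window is also the longest, at 190.5 kb. S1pr1 had 4, 4, 3 and 6 peaks in Tcf-1 RV, against 3, 4, 4 and 6 in Empty RV, with equal means. Klf2 had 4, 5, 4 and 7 in Tcf-1 RV, against 2, 4, 6 and 6 in Empty RV (exact permutation p 0.8).

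Merging gave 61 NIH3T3 regions in the 7 windows, 13 of them open in all 8 libraries (24% of regions genome-wide). More Tcf-1 RV than Empty RV libraries had a peak at 28 regions (41.2% genome-wide), fewer at 9 (20.3% genome-wide), and equally many at 24. A region counted as gained when each Tcf-1 RV library had a peak there while Empty RV had none. This held for 1 of the 61 regions and for 1.08% of all NIH3T3 regions; the share of all regions was 3.39% without Tcf-1 RV replicate 3 and 1.86% without Empty RV replicate 4. None was lost in the reverse sense (0.11% of all regions, and 0.498% of all gene windows held one). That share was 0.485% without Empty RV replicate 1, 0.285% without Tcf-1 RV replicate 4 and 0.197% without Tcf-1 RV replicate 1. Within day 2 alone, 10 member regions had peaks in both Tcf-1 RV libraries and neither Empty RV library (12.1% of all regions), and within day 4 alone 3 had (1.92%).

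The gained region, chr9:123833068-123833652, had peaks of 0.572, 0.518, 0.253 and 0.450 kb in Tcf-1 RV replicates 1 to 4 and none in Empty RV. It lies inside Fyco1, a gene of vesicle transport, 49611 bp above Ccr9 and 18663 bp from Xcr1, and 390 of its 585 bp are inside the Ccr9 window. A Tcf-1 summit with a score of 94.9 lay in it, higher than 95.6% of all summits. Its two-sided Fisher exact p was 0.0286 over 4 against 4 libraries and 1 after adjustment over 77882 regions, and no DP library had a peak there.

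A pair of regions came next, with peaks in 3 Tcf-1 RV libraries and none in Empty RV (2.58% of all regions): chr11:99124624-99125027, 19172 bp from Ccr7, and chr2:102928099-102928511, 26430 bp from Cd44. Both lacked a peak in Tcf-1 RV replicate 2, and both contained a summit, with scores of 47.9 and 76.1.

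At the end of Cxcr6 in the Ccr9 window, the region lost in KO thymocytes overlapped a fibroblast region seen in Tcf-1 RV alone. The NIH3T3 region chr9:123806336-123806682 had peaks of 0.347 and 0.266 kb in the day 2 Tcf-1 RV libraries and none in the other 6, and contained a summit with a score of 16.3. This pattern, both day 2 Tcf-1 RV libraries and nothing else, was seen at 3 member regions and at 2.39% of all NIH3T3 regions. All 3 held a summit, as did 55.4% of such regions genome-wide, and 1 of the 3, this one, lay at a gene end. Of the 61 fibroblast regions, 10 overlapped a region open in both WT DP libraries and 2 overlapped one open in both KO libraries. No genome-wide share of either count was computed, and the KO lists were shorter than the WT lists.

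**Figure D5:**
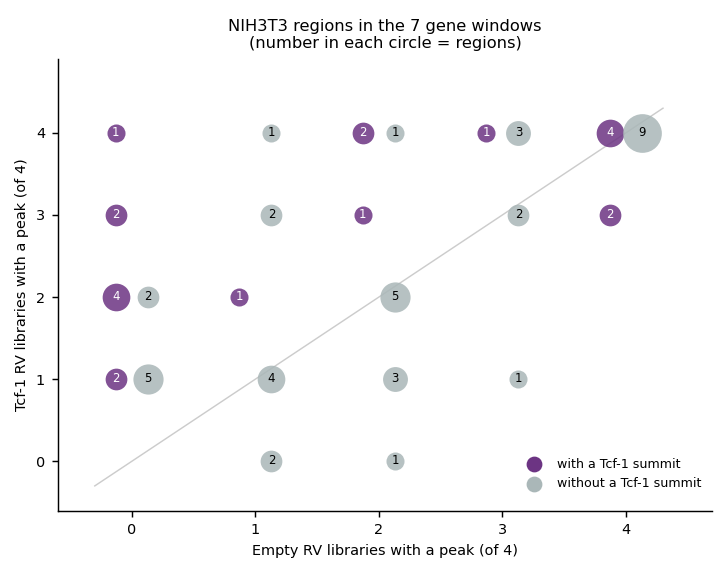
Each of the 61 NIH3T3 regions in the 7 windows by the number of Tcf-1 RV libraries (vertical axis) and Empty RV libraries (horizontal axis) with a peak; circles grow with the printed number of regions. Regions with a Tcf-1 summit are purple and those without are grey. Of the 20 with a summit, 14 lie above the diagonal line of equal numbers, for which no genome-wide share was computed.

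Tcf-1 summits numbered 43 in the 7 windows, or 5.09 per 100 kb, against a median of 1.59 per 100 kb over all gene windows, of which 72.1% held a summit. Cd44 held 18, Ccr9 7, Ccr7 and S1pr1 6 each, Ccr4 3, Cxcr4 2 and Klf2 1. The summit with the highest score, 166.7, lay at position 115689666 of chromosome 3, 20767 bp below S1pr1, in a region open in all 8 NIH3T3 libraries and in no DP library. Of the 43 summits, 23 lay outside every NIH3T3 peak (46.5% of all summits). By the summit position itself, 11 lay only in Tcf-1 RV peaks and 9 in an Empty RV peak, for which no genome-wide share was computed. Among the 11, positions 102901429 and 102944538 of chromosome 2 lay in regions open in all 8 NIH3T3 libraries. The single Klf2 summit, at position 72314766 of chromosome 8 with a score of 89, was among the 23.

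Of the 61 member regions, 20 held a summit (27% genome-wide). Among the 28 with more Tcf-1 RV libraries 14 held one, among the 9 with fewer 2 did, and among the 24 equal ones 4 did. No genome-wide share was computed for this split. Of the 16 regions without an Empty RV peak, 9 held a summit (36.2% genome-wide), and of the 13 open in all 8 libraries 4 did (38.8% genome-wide). Thymocyte regions seldom coincided with these fibroblast summits: 3 of the 37 regions open in WT held one (11.4% genome-wide), and 2 of the 3 were lost in KO (24.8% genome-wide). The summit list is pooled and tagged day 2, so it has no replicate error.

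In NIH3T3 without Tcf-1, H3K27me3, the Polycomb mark, covered 97.8 kb of the 7 windows in both replicates, or 11.6% of their length. The median window of all genes had 6.24% and the mean was 13.8%. Ccr7 had the greatest covered length of the 7 genes, 38.4 kb in 2 islands. The nearer, chr11:99151201-99173800, reached over its upper end with folds over control of 2.64 and 2.39 in replicates 1 and 2. Ccr7 was the only member with an end in H3K27me3 in both replicates, against 16.5% of all genes.

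Cd44 had 24.4 kb of H3K27me3 and Klf2 had 16.2 kb, all of it at lower coordinates than the genes and none on their bodies. Cxcr4 had 8.8 kb, Ccr9 7 kb, S1pr1 3 kb and Ccr4 none. At Cxcr4, an island of 4.8 kb over the start was called in replicate 1 alone, with a fold of 1.79.

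H3K9me3, the mark of constitutive heterochromatin, covered 35 kb or 4.15% of the windows, against a median of 1.88% and a mean of 7.39% over all genes. Ccr7 held 25.4 kb of it in 6 islands, one of them over its lower end, so that the 2 repressive marks lay on opposite ends of the gene. Ccr9 had 1 island of 7.2 kb across its upper end, with folds of 5.03 and 4.47. Ccr4 had 2.4 kb, and the windows of the other 4 genes had none in both replicates. An end in H3K9me3 was thus seen for 2 of 7 members, against 9.38% of all genes.

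Of the 36 other homing genes, 10 had an end in H3K27me3, among them Dock2 (99 kb covered), Rhoh (85.1 kb), Ccr6 (67.4 kb) and Itgal (47.6 kb). A gained NIH3T3 region was found at 4 of them, Cxcr3, Cxcr6, Xcr1 and Itgb1, where 5.29% of all windows had one; Cxcr6 and Xcr1 share the gained region of the Ccr9 window. Cxcr3, with 1 peak in each Tcf-1 RV library and none in Empty RV, had an exact permutation p of 0.0286 and an adjusted p of 1.

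By summed absolute difference in peak number over the 12 ATAC-seq libraries, the gene most like Cxcr4 was Slc28a2b (3 peaks), and next Dok6 (4). The nearest to Klf2 was H2-Oa (3), to S1pr1 Defb25 (2), to Ccr7 Sstr3 (5), and to Cd44 Ndst1 (6). For Ccr9, 4 genes tied at 5 (Fam177b, Gm11100, Prxl2b and Thoc7), and for Ccr4, Akr1b3, Coq2 and Vipr2 tied at 8. These likenesses carry no test, and the 12 libraries also differ in list length, whose part in them was not tested.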

How the data were processed

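ATAC-seq peaks of 12 libraries, histone islands of 4 libraries and 1 pooled Tcf-1 summit list were used; the rest of the 321 samples were not analysed here. The submitters' processing notes name MACS2, Picard, STAR 2.5, Bowtie2 2.2.9, Trim Galore and FastQC, and builds mm10, GRCm38 and GRCh37; the role of each is not given. The deposited ATAC-seq files hold positions only. The deposited summits carry a score on no stated scale. The histone files the authors deposited hold SICER islands with ChIP and control read counts, a fold (ratio of ChIP over control) and p-values, of which the largest adjusted one was 0.00997. These p-values were not used.

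The 293 peaks on unplaced sequences were left out. Peaks sharing at least 1 bp were merged into regions, and a region was open in each library that had a peak in it. Island length is that covered in both replicates. Python 3.11.15, numpy 2.4.6, pandas 2.3.3 and scipy 1.17.1 were used, and the calls and permutation tests were checked on simulated peaks. Exact permutation tests were two-sided, over libraries, with Benjamini-Hochberg adjustment over all windows or regions, and measure only the spread between these libraries. After removal of arm means, same-numbered NIH3T3 libraries correlated in every pair (0.187, 0.189, 0.125 and 0.260). Libraries of the other arm with the same day tag but another number also correlated, at 0.065 to 0.194. Pairing by number and a shared day tag therefore cannot be told apart, and the numbers were taken as pairs without further evidence. The gene table (GRCm38.p6) has no strand; strand came from the RefSeq promoter table, which held 5 of 7 members.

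The members and gene lists were chosen with earlier results of these data known. Named genes were all members, the other homing genes with the most lost regions (3 tied for the third place), with a gained NIH3T3 region, or with the longest H3K27me3 at a gene end, and the nearest genes by peak number. Some genes that this rule selects are not reported here. Alternatives were the flank (10 kb, or the gene body), a peak over at least 50% of the region, a peak within 1 kb counted as present, equal lists of the widest peaks, peaks per 10000, each day tag, each replicate left out, the replicate block, higher summit scores, and islands of either replicate or of higher fold.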

Additional observations from a re-analysis of the deposited data

Results flagged for a closer look

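Across the 28 groups of 4 NIH3T3 libraries examined for the 7 genes (number of peaks and length covered by peaks, in each arm), 5 had 1 library far from the other 3. For normally distributed values, chance alone sets apart about 1 group in 20. This rate was not computed for small whole numbers with ties, and peak number and covered length of a window are not independent. In all 5 groups the library was Tcf-1 RV replicate 4, whose list of 62639 peaks is the longest of the 12. Its Ccr7 window held 7 peaks, against 4 in each of the other Tcf-1 RV libraries, and its peaks there covered 2411 bp, against 1490, 1358 and 1304 bp. Its Ccr4 window held 9 peaks, against 6 in each of the others, covering 3537 bp, against 1979, 1952 and 2043 bp. At Cd44 its peaks covered 6072 bp, against 3786, 3694 and 3655 bp. The part of list length in these values was not tested.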

How the results depend on the processing

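The 25 lost DP regions, of 37 called in both WT libraries, became 10 of 15 with 10 kb flanks and 6 of 11 in the gene bodies alone. With equal lists of the widest peaks they became 2 of 11 (14.7% genome-wide). They were 27 of 37 without KO replicate 1 (49.6% genome-wide) and 27 of 37 without KO replicate 2 (54%). Without WT replicate 1 they were 32 of 44 (59.7%), and without WT replicate 2 they were 25 of 37 (47.5%). The 0 gained DP regions became 1, at Klf2, without KO replicate 1 (1.76% genome-wide), and stayed 0 with equal lists of the widest peaks (10.5%). The 1 gained NIH3T3 region became 0 with 10 kb flanks, in the gene bodies alone, or when a peak had to cover 50% of the region, 10 on day 2 alone (12.1% of all regions), 3 on day 4 alone (1.92%), and 1 to 3 with 1 replicate left out (3 without Tcf-1 RV replicate 2, 2 without Empty RV replicate 3). With equal lists of the widest peaks the count stayed at 1, but the Ccr9 window then held 0 gained regions and the Ccr4 window 1. The 0 lost NIH3T3 regions became 1 on day 2, at S1pr1, against 0.717% of all regions merged from the day 2 libraries alone. On day 4 they became 1, at Ccr9, against 3.46% of those merged from the day 4 libraries. The 43 summits became 16 with 10 kb flanks and 21 with the higher-scoring 50%. H3K27me3 length (97.8 kb) was 20.1 kb with 10 kb flanks, 154.9 kb in either replicate, 74.2 kb with the higher folds and 121.2 to 131.5 kb from 1 replicate. H3K9me3 length (35 kb) was 19.2, 60.6, 12.4 and 42.2 to 53.4 kb in the same order.

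The replicate block left 25 lost DP regions, 0 gained DP regions, 1 gained NIH3T3 region, 0 lost ones and 0 windows past 0.05 (smallest exact sign-flip p 0.125, the least 4 pairs allow); with 1 pair allowed to show no difference, 4 NIH3T3 regions were gained, and the share of all regions was 4.52%, against 1.08%. In the tests of peak number, the adjusted p of Ccr7 was 0.822 to 1 over the alternatives. DP replicates of the same number correlated at -0.0505 and share only a number.

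Differences in peak number that changed sign, Tcf-1 RV minus Empty RV, were those of Ccr9 (-0.75 with 10 kb flanks, -0.50 on day 4), Klf2 (-0.25 with the widest peaks, -0.038 per 10000, -0.17 without Tcf-1 RV replicate 4, -0.33 without Empty RV replicate 1, -0.50 on day 4) and Cd44 (-2 with the widest peaks). KO minus WT turned to 0.15 at Ccr9 and 0.18 at S1pr1 per 10000 peaks. The peak-number differences within each day tag, and the alternatives to those between KO and WT, were tried after the data were seen. The cause of these changes was not tested, and unknown depth limits every absence of a peak.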
